A study of Mus musculus with 19 samples.

Results

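RNA sequencing of 13 libraries of sorted mouse Kupffer cells, of 19 in the series, compared monocyte-derived with embryo-derived cells under 1 diet. All mice were wild-type female C57BL/6 given for 4 weeks a diet that lacks methionine and choline (MCD); their age was not given in the sources used here. MCD_MoKCs (n = 7) were sorted from digested liver as CLEC2+ TIMD4- cells and called monocyte-derived, and MCD_EmKCs (n = 6) as CLEC2+ TIMD4+ cells and called embryo-derived. Libraries were chosen by these group names; the other 6 libraries, from chow-fed mice, were not used here. The comparison describes how Kupffer cells of the 2 gates, named by origin, differ in a liver with steatohepatitis, which this diet induces. Origin was assigned by the TIMD4 gate and not by lineage tracing. Embryo-derived cells that had lost TIMD4 would thus be counted as MCD_MoKCs, and monocyte-derived cells that had gained it as MCD_EmKCs. In bulk samples, fewer cells of a type and less RNA per cell cannot be told apart.

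Kupffer cells are the macrophages that line the liver sinusoids, where they clear bacteria, aged red cells and complement-coated particles from portal blood. They are seeded before birth and renew themselves. When many die, as in steatohepatitis, blood monocytes enter the emptied niche and take on Kupffer cell genes there, among which Timd4, which encodes a phosphatidylserine receptor, is known to be acquired late.

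MCD_MoKCs carried lower levels of several lectin, scavenger receptor and complement genes that equip resident Kupffer cells for clearance. They carried higher levels of many MHC class II, Mincle-family lectin, chemoattractant receptor, matrix protease, coagulation and growth factor genes. Of 13994 genes tested, limma called 774 higher in MCD_MoKCs (5.53% of genes tested) and 615 lower (4.39%), 1389 in all (9.93%), at a Benjamini-Hochberg adjusted p under 0.05. In 387 genes every MCD_MoKCs library lay above every MCD_EmKCs library (2.77% of genes tested), and in 329 every one lay below (2.35%), 716 in all (5.12%). Among genes called higher, the log2 fold change had a median of 1.87 and the level a median of 160 normalised reads in MCD_EmKCs. Those called lower had a median of -1.19 and a median MCD_EmKCs level of 1425. In MCD_MoKCs the median levels of these 2 sets were 621 and 607. The direction of a call itself selects on the MCD_EmKCs level, so the difference in that level is no separate result. Of genes called higher, 223 had a MCD_EmKCs library at 0, against 67 lower calls with a MCD_MoKCs library at 0. The median over all genes tested was 0.02.

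**Figure D1:**
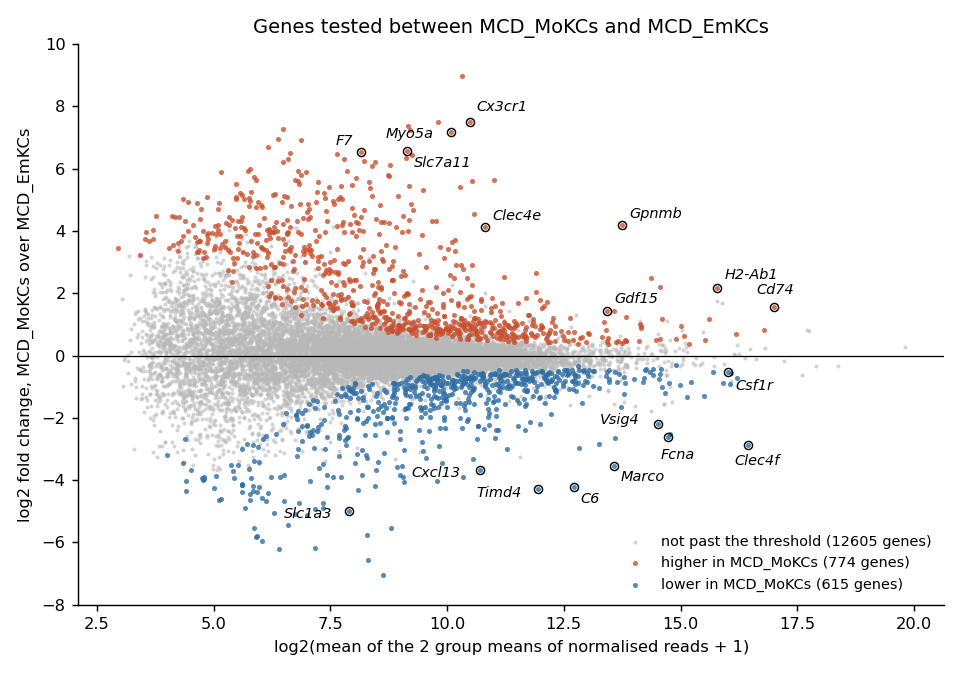
Each point is 1 of 13994 genes tested; the x axis is the log2 mean level of normalised reads and the y axis the log2 fold change of MCD_MoKCs over MCD_EmKCs. Red points (774) were called higher and blue points (615) lower by limma; circled genes are named, and the higher calls include many genes of low level and large fold change.

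Values are normalised reads, the deposited reads per gene divided by 1 factor per library, and group values are given as the lowest, median and highest library of each group. A fold change is on the scale of log2(value + 1), with its standard error (SE), and compares a gene with itself, since reads are not divided by gene length. Positions are those of GENCODE M21 on mm10. Total reads per library ran from 11642240 to 30983487, and overlapped between groups. The sort gene Timd4 (chromosome 11, 46810800 to 46844332) was at 258, 362 and 743 in MCD_MoKCs and at 6584, 7509.5 and 8501 in MCD_EmKCs, as the gate requires. Clec1b, which encodes CLEC2 and was selected in both sorts, was at 3529, 4738 and 6533 and at 6037, 7097 and 8007, with overlapping groups. It was called lower in MCD_MoKCs (log2 change -0.47, SE 0.14, limma adjusted p = 0.0427), but in only 4 of 13 fits without 1 library. The Clec1b call ended in edgeR (adjusted p = 0.0569) and without MCD_MoKCs 4 to 7 (limma adjusted p = 0.499). Every library of both groups expressed the Kupffer cell genes Clec4f, Vsig4 and Cd5l, which were lower in MCD_MoKCs, as given below. The leading principal component, with 24.7% of the variance, separated the groups. On the third component, MCD_MoKCs 1 to 3 lay at 33.6 to 78.5 and MCD_MoKCs 4 to 7 at -64.1 to -26.3. MCD_EmKCs lay at -23.6 to 44.3 there, with MCD_EmKCs 1 within the range of MCD_MoKCs 1 to 3. Libraries 1 to 3 also had the highest mitochondrial shares of reads, 0.534 to 0.729% against 0.244 to 0.359% in libraries 4 to 7 and 0.155 to 0.317% in MCD_EmKCs. Without libraries 1 to 3, limma called 473 genes higher and 452 lower, of which 423 and 401 were among those called with all libraries, and no gene called with all libraries had the opposite sign.

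Reads on markers of other cells also differed. Of 14 T and NK cell genes tested, 8 were higher in MCD_MoKCs, and the list took 0.00944 to 0.0182% of reads there and 0.00178 to 0.00447% in MCD_EmKCs (exact two-sided permutation p = 0.000583, the smallest that 7 against 6 libraries allow, adjusted p = 0.00524 over 18 library measures, above every MCD_EmKCs library in 7 of 7). Cd8a, Trac, Ncr1 and Prf1 were below the level required for testing. The count was 5 to 8 without 1 library, with 5 without MCD_MoKCs 4, 5 or 7, and it was 5 without MCD_MoKCs 1 to 3 and 4 in edgeR. The T and NK gene Nkg7 was at 43.2, 108 and 169 against 0, 3.12 and 9.64, and Cd3e, of the T cell receptor complex, at 0, 20.7 and 88.9 against 0, 5.29 and 12.7, which did not pass (limma adjusted p = 0.221). Of 14 monocyte genes tested, 9 were higher and none lower, among them Chil3, S100a4, S100a6 and Ace. The list took 0.201 to 0.252% of reads in MCD_MoKCs and 0.127 to 0.174% in MCD_EmKCs, while Ly6c2, which marks classical monocytes, was below the level required for testing. Of 11 capsular macrophage genes, 11 were higher (7 without MCD_MoKCs 1 to 3), and the list took 0.384 to 0.641% of reads against 0.182 to 0.307%. That list holds Gpnmb and Cx3cr1, which are reported below as genes of MCD_MoKCs, and Cx3cr1 is in the monocyte list too. These counts are thus not separate from the results below. Of 13 conventional dendritic cell genes, limma called 3 higher, Xcr1, Flt3 and Ccr7, while edgeR called 1 and limma 1 without MCD_EmKCs 4. Flt3 was not called in edgeR (adjusted p = 0.269), without MCD_MoKCs 1 to 3 (limma adjusted p = 0.183) or without MCD_MoKCs 4 to 7 (limma adjusted p = 0.0853), nor Xcr1 in edgeR (adjusted p = 0.146) or without MCD_MoKCs 4 to 7 (limma adjusted p = 0.307). Hepatocyte genes took less of the reads in MCD_MoKCs, 0.0722 to 0.112% against 0.104 to 0.155%. Most of these reads lay on 1 gene, Trf, at 12823 to 18602 normalised reads in MCD_MoKCs and 20637 to 24107 in MCD_EmKCs. Of 18 hepatocyte genes tested, 2 were lower, Trf and Hpx, and none higher. Platelet and megakaryocyte genes took 0.0104 to 0.0247% of reads in MCD_MoKCs and 0.00464 to 0.00782% in MCD_EmKCs (exact permutation adjusted p = 0.00787, higher in 7 of 7). Of the 11 genes in that list 4 reached the level required for testing, and Pf4 and Itgb3 were higher, Itgb3 in 8 of 13 fits without 1 library (not without MCD_EmKCs 1 or 2 or MCD_MoKCs 1, 5 or 7). Most of the list's reads lay on Pf4, also counted among the chemokines, at 1463 to 4586 normalised reads in MCD_MoKCs and 701 to 1432 in MCD_EmKCs. Cholangiocyte genes took 0.00539 to 0.0466% against 0.0000576 to 0.00411% (exact permutation adjusted p = 0.0150, higher in 7 of 7), and Spp1 was their 1 called gene. Its call ended in edgeR (adjusted p = 0.0682) and without MCD_MoKCs 1 to 3 (limma adjusted p = 0.116) or 4 to 7 (limma adjusted p = 0.159). Spp1 is also counted among lipid-associated macrophage genes. Genes of stellate cells and fibroblasts took 0.0132 to 0.0253% against 0.0186 to 0.0326% (exact permutation adjusted p = 0.0150, below every MCD_EmKCs library in 5 of 7). The part of these other cells in the results below was not tested.

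**Figure D2:**
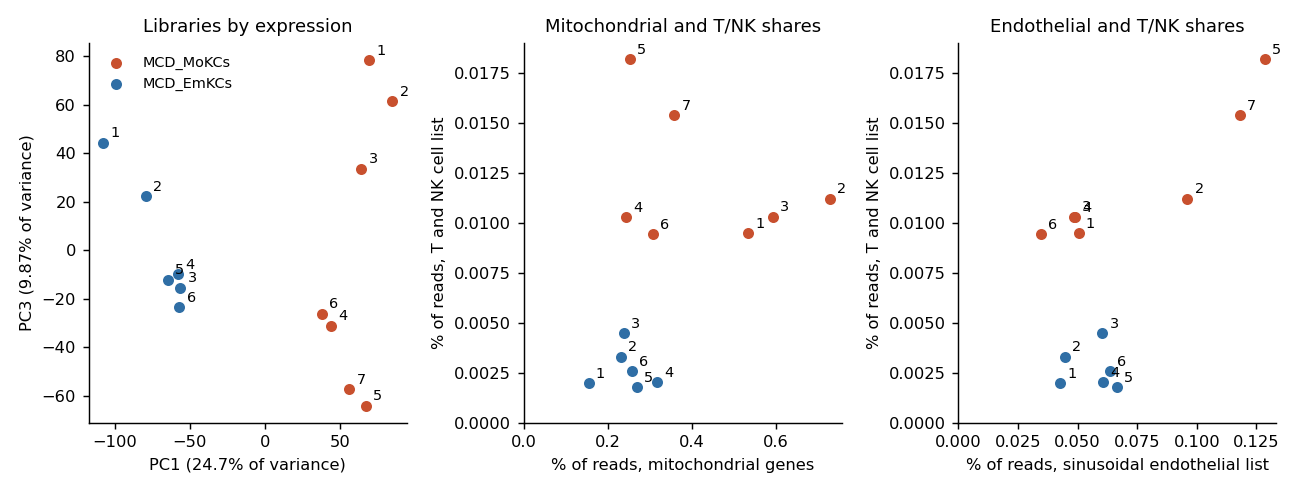
Left, each library on the first and the third principal component; middle and right, the T and NK cell list as % of reads (y axis) against the mitochondrial and the sinusoidal endothelial shares (x axes, %). Numbers are the library numbers within each group: MCD_MoKCs 1 to 3 lie apart on the third component and in mitochondrial share, and MCD_MoKCs 5, 7 and 2 have the highest endothelial and T and NK shares.

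Promoters of the genes with the smallest p values were read to give the sequence next to the start sites of genes that moved together. RefSeq (GRCm38.p6) start sites were matched for 9688 of the genes tested, with 12369 promoters of 250 bases before the start. The 3 genes in each direction with the smallest p whose window lay outside their GENCODE gene are shown 5′ to 3′ on the gene's strand, with any of 8 searched motifs, on either strand, in capitals. These 8 were the PU.1 core GAGGAA, C/EBP TTGCNNAA, AP-1 TGANTCA, the MAF half-site TGCTGAC, the E-box CACGTG, RBPJ GTGGGAA, the NF-kB site and the direct-repeat element of LXR and RXR. The matches in the windows shown do not overlap. Clec4e (chr6:123289872-123290121, minus strand) holds 2 PU.1 cores and 1 C/EBP match, H2-Eb1 (chr17:34305617-34305866, plus strand) none and H2-M2 (chr17:37483555-37483804, minus strand) 2 PU.1 cores. Of the genes lower in MCD_MoKCs, Marco (chr1:120505025-120505274, minus strand) holds 1 PU.1 core, Vsig4 (chrX:96293439-96293688, minus strand) 2 and Slc45a3 (chr1:131962665-131962914, plus strand) none.
Clec4e: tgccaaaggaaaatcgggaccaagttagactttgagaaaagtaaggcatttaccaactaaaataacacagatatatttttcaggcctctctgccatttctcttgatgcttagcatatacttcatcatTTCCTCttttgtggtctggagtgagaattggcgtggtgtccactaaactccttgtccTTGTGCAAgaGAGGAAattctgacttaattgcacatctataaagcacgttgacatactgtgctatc
H2-Eb1: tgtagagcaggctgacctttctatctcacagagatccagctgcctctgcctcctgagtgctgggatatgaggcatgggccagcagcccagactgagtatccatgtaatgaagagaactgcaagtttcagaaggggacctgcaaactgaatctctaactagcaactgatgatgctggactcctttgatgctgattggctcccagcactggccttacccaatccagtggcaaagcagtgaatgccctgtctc
H2-M2: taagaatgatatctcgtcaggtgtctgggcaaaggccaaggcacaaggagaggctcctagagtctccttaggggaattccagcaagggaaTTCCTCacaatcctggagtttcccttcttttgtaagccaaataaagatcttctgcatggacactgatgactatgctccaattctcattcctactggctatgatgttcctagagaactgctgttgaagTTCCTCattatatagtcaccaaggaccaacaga
Marco: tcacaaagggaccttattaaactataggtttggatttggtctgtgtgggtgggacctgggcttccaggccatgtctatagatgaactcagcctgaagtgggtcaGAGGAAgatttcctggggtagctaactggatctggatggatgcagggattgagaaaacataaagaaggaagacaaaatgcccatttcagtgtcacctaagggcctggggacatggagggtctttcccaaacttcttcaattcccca
Vsig4: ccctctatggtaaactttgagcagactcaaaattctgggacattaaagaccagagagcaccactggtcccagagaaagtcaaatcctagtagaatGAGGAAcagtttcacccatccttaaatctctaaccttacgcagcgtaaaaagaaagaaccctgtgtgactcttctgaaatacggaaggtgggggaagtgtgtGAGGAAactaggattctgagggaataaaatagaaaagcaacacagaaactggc
Slc45a3: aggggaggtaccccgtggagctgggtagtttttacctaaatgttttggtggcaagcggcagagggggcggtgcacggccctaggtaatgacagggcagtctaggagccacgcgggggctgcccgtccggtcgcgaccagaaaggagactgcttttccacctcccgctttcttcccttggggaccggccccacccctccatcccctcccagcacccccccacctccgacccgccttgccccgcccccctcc

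The PU.1 core, the letters that the macrophage factor PU.1 is known to bind, stood in promoters of both directions. It was in 22.9% of promoters of all genes tested, 27.0% of those of genes called higher and 22.5% of those of genes called lower. AP-1 letters were in 4.62, 8.40 and 5.31% in that order, C/EBP in 7.62, 9.80 and 8.36%, and NF-kB in 0.372, 0.840 and 0.322%. The MAF half-site was in 3.21, 2.52 and 4.82%, the E-box in 8.29, 7.56 and 6.75%, RBPJ in 5.30, 6.72 and 6.11%, and the LXR and RXR element in none. The windows of the 3 sets were 59.5, 58.1 and 59.5% G and C. A match describes letters and not binding. Spi1, which encodes PU.1, was at 11485, 12768 and 15352 in MCD_MoKCs and 11724, 14987 and 15838 in MCD_EmKCs (log2 change -0.10, SE 0.11, limma adjusted p = 0.659).

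The complement component C6 had the smallest p of the genes that were lower in MCD_MoKCs. C6, part of the membrane attack complex (chromosome 15, 4727175 to 4814967), was at 452, 682 and 1126 normalised reads in MCD_MoKCs and at 10680.1, 12914 and 14017 in MCD_EmKCs, which on the log2 scale is a change of -4.21 (SE 0.17, limma adjusted p = 1.03e-11). Clec4f, a galactose-binding lectin that in mice marks Kupffer cells (chromosome 6, 83644542 to 83656187), was at 13948, 23325 and 27159.9 and at 150476, 158092 and 162762, a difference of -2.88 (SE 0.13, limma adjusted p = 1.61e-11) on that scale. In MCD_EmKCs its 6 libraries lay within a narrow range, and every MCD_MoKCs library was far below it while still holding Clec4f among its abundant transcripts. Marco, a scavenger receptor for bacteria and unopsonised particles (chromosome 1, 120474538 to 120505024), whose promoter is printed above, was at 1479, 1704 and 3115 against 17877, 21723 and 28448 (log2 change -3.56, SE 0.16, limma adjusted p = 2.33e-11). Vsig4, the complement receptor CRIg that captures C3-coated bacteria from blood (chromosome X, 96247203 to 96293438), was at 6744, 8221 and 9505 against 33962, 35991 and 49185 (log2 change -2.19, SE 0.11, limma adjusted p = 1.24e-10). None of these 4 genes had a library of 1 group within the range of the other.

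Further lower genes with the smallest p values mixed lectin pathway, matrix and transport roles. Slc45a3, a solute carrier of the plasma membrane (chromosome 1, 131962967 to 131982969), was at 381, 511 and 879 against 4185, 4415 and 4729 (log2 change -3.01, SE 0.17, limma adjusted p = 8.94e-10). Fcna, ficolin A, which starts the lectin pathway of complement (chromosome 2, 25624666 to 25628030), was at 4917, 7550.3 and 11487 against 39861, 46501 and 57913 (log2 change -2.61, SE 0.17, limma adjusted p = 5.86e-09). Its antisense partner Fcnaos (chromosome 2, 25607892 to 25631761) was at 5464, 8189 and 12491 against 40777, 47396 and 59309.5, nearly the same values, and without a stated strand the reads of the 2 genes cannot be told apart. C4b, complement component 4 (chromosome 17, 34728380 to 34743882), was at 905, 1632 and 2453 against 10452, 11976 and 19110.2 (log2 change -2.98, SE 0.20, limma adjusted p = 8.24e-09). Pcolce2, an enhancer of procollagen processing (chromosome 9, 95637601 to 95698096), was at 128, 283 and 469 against 2252, 2534 and 3338 (log2 change -3.32, SE 0.25, limma adjusted p = 2.53e-08), and it overlaps 2 antisense transcripts. Atp1b3, a beta subunit of the sodium pump (chromosome 9, 96332655 to 96364442), was at 5290.3, 6656 and 7776 against 16343, 20175 and 25256 (log2 change -1.65, SE 0.12, limma adjusted p = 2.53e-08). For all of them the highest MCD_MoKCs library stayed below the lowest MCD_EmKCs library.

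Among genes higher in MCD_MoKCs, Myo5a had the smallest p. Myo5a, an actin motor that moves organelles (chromosome 9, 75071015 to 75223688), was at 1451, 2079 and 2745 in MCD_MoKCs and at 7.28, 15.2 and 19.4 in MCD_EmKCs, which on the log2 scale is a change of 7.17 (SE 0.30, limma adjusted p = 1.2e-11). It was thus close to silent in each of the 6 MCD_EmKCs libraries. Clec4e, the Mincle receptor for mycobacterial glycolipid and dying cells (chromosome 6, 123281789 to 123289870), was at 2266, 3078 and 5552 against 104, 196 and 284 (log2 change 4.11, SE 0.26, limma adjusted p = 4.03e-09). Slamf7, a SLAM family receptor of activated leukocytes (chromosome 1, 171632403 to 171653035), was at 1549, 1937 and 2860.4 against 132, 206 and 329.9 (log2 change 3.34, SE 0.23, limma adjusted p = 8.24e-09). Gdf15, a stress-induced cytokine of the TGF-beta family (chromosome 8, 70629393 to 70632456), was at 14175, 15868 and 19254 against 5260, 6001 and 6341 (log2 change 1.44, SE 0.10, limma adjusted p = 8.25e-09), already abundant in the embryo-derived cells. Cd63, a tetraspanin of late endosomes and lysosomes (chromosome 10, 128900989 to 128912822), was at 4509, 6435 and 8169 against 812, 939 and 1788 (log2 change 2.64, SE 0.20, limma adjusted p = 2.83e-08).

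Hvcn1, a voltage-gated proton channel that balances charge during the oxidative burst (chromosome 5, 122206804 to 122242297), was at 1258, 2009 and 3140.1 against 103, 176 and 202 (log2 change 3.70, SE 0.26, limma adjusted p = 1.28e-08). Arhgap22, a GTPase-activating protein for Rac (chromosome 14, 33214026 to 33369934), was at 1462, 2063 and 2447 against 188, 292 and 375 (log2 change 2.89, SE 0.20, limma adjusted p = 1e-08). Both overlap a gene on the opposite strand, Tctn1 and Gm15512, with fold changes of 2.71 and 3.03, so the share of reads that belongs to each cannot be told apart. H2-M2, a nonclassical MHC class I gene (chromosome 17, 37480851 to 37483552), was at 933, 1713 and 2240.2 against 50.3, 80 and 127 (log2 change 4.32, SE 0.30, limma adjusted p = 8.25e-09). It belongs to a family of similar genes, and how reads between them were assigned is not given in the sources used here. The class II beta chains H2-Ab1 (chromosome 17, 34257689 to 34269419) and H2-Eb1 (chromosome 17, 34305867 to 34316674) had fold changes of 2.15 (SE 0.13, limma adjusted p = 2.83e-09) and 2.48 (SE 0.16, limma adjusted p = 5.47e-09). In each of these genes the groups did not overlap.

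**Figure D3:**
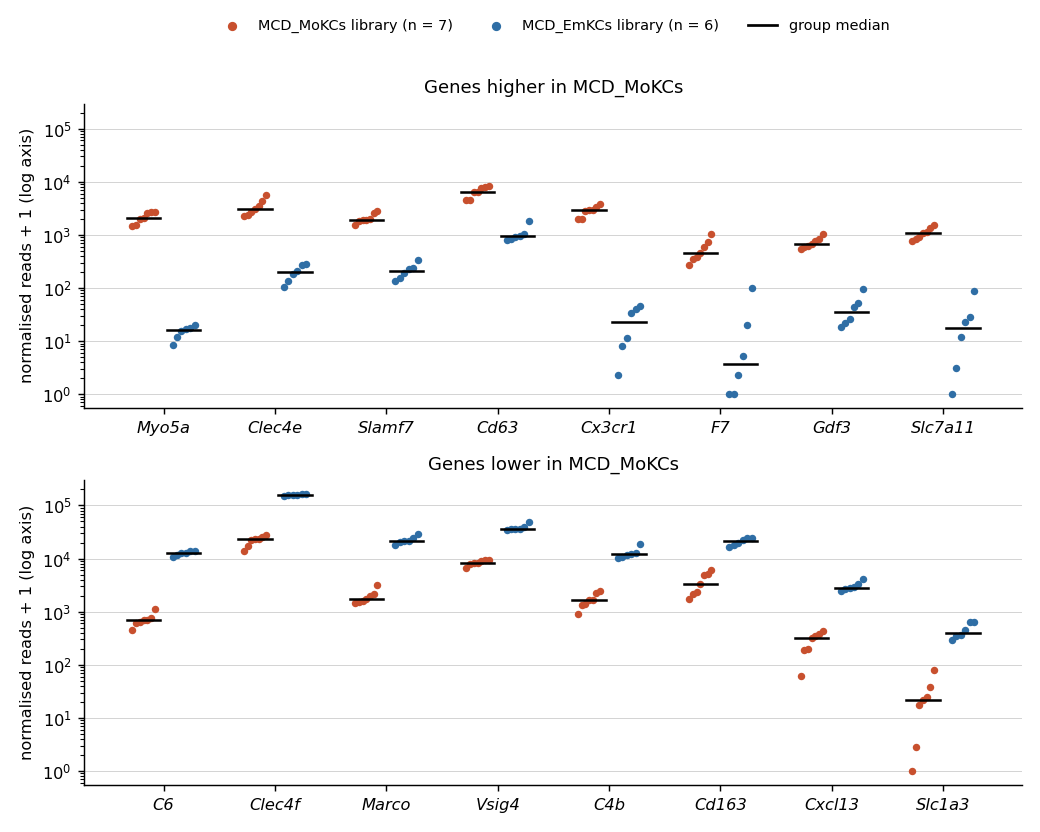
Normalised reads plus 1 on a log axis for 16 genes, 1 point per library, with the groups side by side and a bar at each group median. In each gene all 7 MCD_MoKCs libraries lie on 1 side of all 6 MCD_EmKCs libraries; Cx3cr1 and F7, for example, stay below 100 in every MCD_EmKCs library.

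The 5 largest differences in reads in each direction, among genes that were called and did not overlap between groups, lay in abundant transcripts. Cd74, the invariant chain that chaperones class II molecules (chromosome 18, 60803848 to 60812652), was at 157272, 193496 and 263086 in MCD_MoKCs against 46065, 66334 and 92918 in MCD_EmKCs (log2 change 1.56, SE 0.13, limma adjusted p = 2.09e-07). H2-Ab1 was at 60788, 92444 and 113646 against 17815, 20162 and 23862, Lyz2, which encodes lysozyme (chromosome 10, 117277331 to 117282321), at 100327, 144268 and 213184 against 67851, 78761 and 97505 (log2 change 0.82, SE 0.15, limma adjusted p = 0.00128). Psap, the precursor of the saposins that help lysosomal enzymes degrade sphingolipids (chromosome 10, 60277627 to 60302597), was at 53889.9, 67868 and 82809 against 20149, 30758 and 44469 (log2 change 1.16, SE 0.14, limma adjusted p = 1.6e-05). Fth1, the ferritin heavy chain (chromosome 19, 9980598 to 9985098), was at 72474, 94166 and 119537 against 46294, 57142 and 67128 (log2 change 0.69, SE 0.12, limma adjusted p = 0.000532). Of the lower genes of that set, Clec4f differed by the most reads, followed by Sdc3, a heparan sulfate proteoglycan (chromosome 4, 130792537 to 130826319), at 39408, 46419 and 55004 against 68204, 91399.9 and 103532 (log2 change -0.92, SE 0.11, limma adjusted p = 7.62e-06), and Slc40a1, ferroportin, which exports iron (chromosome 1, 45908068 to 45926523), at 21167, 25838 and 36911 against 55721, 66307 and 77388 (log2 change -1.31, SE 0.13, limma adjusted p = 9.84e-07). Fcnaos and Fcna completed the 5 lower genes of the set.

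Kupffer cell identity genes were lower in MCD_MoKCs to very different degrees. Of 19 genes tested, 17 were lower and 1, the lectin Cd207, was higher, with a median log2 fold change of -2.19; Nr1h3, which encodes LXR-alpha, did not pass. As a share of the MCD_EmKCs mean, Kcna2, a potassium channel gene, was at 3.57% and C6 at 5.54%, next to the sort gene Timd4 at 5.34%. Marco was at 8.64%, Pcolce2 at 10.5%, Clec4f at 13.9%, Cd163 at 17.4%, Vsig4 at 21.9% and the folate receptor Folr2 at 29%. Cd5l, a secreted scavenger protein, was at 54.2%. Outside the list, the macrophage markers Adgre1, which encodes F4/80, and Csf1r stood at 54.5% and 69.9%. The remaining level thus differed widely from gene to gene. Kcna2 was at 3.32, 17.8 and 127 in MCD_MoKCs against 533 to 1388 in MCD_EmKCs, with MCD_MoKCs 4 far above the other MCD_MoKCs libraries, and without that library its share was 1.69%. Cd207 was at 2895, 3897 and 5471 against 1899, 2586 and 2919 (log2 change 0.64, SE 0.16, limma adjusted p = 0.0121); its groups overlapped, and its call ended without MCD_MoKCs 1 to 3 (limma adjusted p = 0.129).

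**Figure D4:**
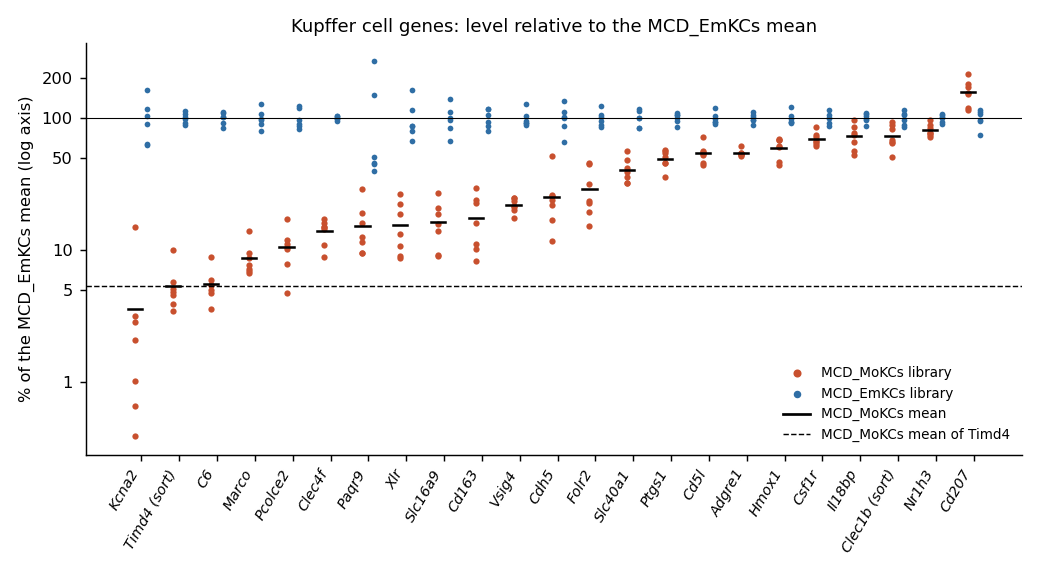
Level of each Kupffer cell gene as % of its MCD_EmKCs mean (log axis), 1 point per library, with the MCD_MoKCs mean as a bar and the MCD_MoKCs mean of Timd4 as a dashed line. Timd4 and Clec1b are the sort genes; MCD_MoKCs means run from 3.57% (Kcna2) and 5.54% (C6), next to Timd4, to 69.9% (Csf1r) and above.

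Scavenger and lectin receptor genes differed in both directions. Of 15 scavenger receptors tested, 6 were lower and 1 higher (median -0.25), with 2 higher without MCD_MoKCs 2 and 3 without MCD_MoKCs 1 to 3. Cd163, the receptor for haemoglobin bound to haptoglobin (chromosome 6, 124304656 to 124330527), was at 1742, 3380.5 and 6212 in MCD_MoKCs against 16793, 21075 and 24641 in MCD_EmKCs (log2 change -2.65, SE 0.26, limma adjusted p = 3.88e-06), and the collectin scavenger Colec12 had a fold change of -2.40 (SE 0.21). Olr1, a receptor for oxidised low-density lipoprotein (chromosome 6, 129485244 to 129507165), was the one that was higher, at 246, 427 and 683 against 0, 3.67 and 39, a ratio of means of 38.8 (limma adjusted p = 1.51e-05) and of 77.9 without MCD_EmKCs 5. Ratios without 1 library were computed after the data were seen. Msr1, Stab1 and Cd36, with log2 fold changes of -0.25, 0.33 and 0.26, did not pass. Of 24 C-type lectins and galectins, 12 were higher and 5 lower (median 0.65). The higher ones included Clec4e, Clec4d (log2 change 2.65, SE 0.34), Clec4b1 (log2 change 2.42, SE 0.33), Clec5a (log2 change 2.69, SE 0.48) and the beta-glucan receptor Clec7a (log2 change 1.09, SE 0.12). Clec4a1, Clec4a2 and Clec4a3 were also higher, but their calls ended without MCD_MoKCs 1 to 3 (limma adjusted p = 0.397, 0.205 and 0.341). Lgals1, galectin 1, was at 1284, 1840.1 and 2946 against 79.3, 160.3 and 228 (log2 change 3.64, SE 0.28, limma adjusted p = 4.55e-08). The lower ones were Clec4f, Fcna, Colec12, the mannose receptor Mrc1 (log2 change -0.82, SE 0.15) and Cd209f (log2 change -3.92, SE 0.90), whose call ended without MCD_MoKCs 1 to 3 (limma adjusted p = 0.0620).

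Complement genes were lower at several steps of the cascade, while anaphylatoxin receptors were not. Of 19 genes tested, 8 were lower and 2 higher (median -0.12). Beside C6, C4b and Vsig4, Cfp, properdin, which stabilises the alternative pathway convertase (chromosome X, 20925454 to 20931555), was at 15734, 20258 and 26742 against 42030.2, 50853 and 65489 (log2 change -1.33, SE 0.12, limma adjusted p = 4.27e-07). The classical pathway protease C2 had a fold change of -0.88 (SE 0.12) and Cd55, which speeds convertase decay, of -2.68 (SE 0.45). C1qc passed at -0.56 (SE 0.16), but this call ended without any of 5 single libraries (MCD_EmKCs 2, 3 and 5 and MCD_MoKCs 2 and 5) and without MCD_MoKCs 4 to 7 (limma adjusted p = 0.144), and C1qa and C1qb, at -0.31 and -0.12, did not pass. C5ar1, the C5a receptor, was at 4611, 6578 and 7875 against 3032, 3619 and 5031 (log2 change 0.71, SE 0.15, limma adjusted p = 0.0041) and C3ar1, the C3a receptor, had a fold change of 0.43 (SE 0.13). In C5ar1 the groups overlapped, and the call ended without MCD_MoKCs 4 to 7 (limma adjusted p = 0.157). C3ar1 kept its call in 4 of 13 fits without 1 library.

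Iron handling genes held more lower than higher calls. Of 19 tested, 5 were lower and 1 higher (median -0.00). Ferroportin and Cd163 were lower, as was Hmox1, heme oxygenase 1, which breaks down heme (chromosome 8, 75093621 to 75100589), at 9049, 12758 and 14274 against 19069.7, 19793 and 24940.3 (log2 change -0.76, SE 0.12, limma adjusted p = 0.000328), and the iron carrier transferrin, Trf (log2 change -0.48, SE 0.10). Trf and the fifth, Hpx, which carries heme, are also the 2 genes of the hepatocyte list that were lower, and the part of hepatocyte RNA in them was not tested. Ferritin heavy chain was the 1 member that was higher, and 2 were without MCD_EmKCs 1 or 3. The Hpx call ended without MCD_EmKCs 6 and without MCD_MoKCs 1 to 3 (limma adjusted p = 0.119). Of 26 lipid handling genes, 6 were higher and 3 lower (median 0.15). The fatty acid chaperones Fabp4 and Fabp5 were higher by 4.34 (SE 0.37) and 5.63 (SE 0.47), while Apoc1, an apolipoprotein of remnant particles (chromosome 7, 19689481 to 19692660), was at 1427, 1819 and 4714 against 14236, 15511 and 21272 (log2 change -2.85, SE 0.26, limma adjusted p = 9.53e-07). Apoc2, the cofactor of lipoprotein lipase, was at 415, 615 and 809 against 223, 298 and 384 (log2 change 0.97, SE 0.24, limma adjusted p = 0.0107), the opposite direction, and its call ended without MCD_MoKCs 1 to 3 (limma adjusted p = 0.0865). The desaturase Scd1 was at 211, 506 and 762 against 1269, 2105 and 8383 (log2 change -2.37, SE 0.38), with MCD_EmKCs 1 as the highest library.

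Adhesion genes and genes of the Siglec, CD300, TREM, LILR and SIRP receptor families differed in both directions. Of 27 integrins and adhesion genes, 4 were lower and 7 higher (median 0.10), with 4 higher without MCD_MoKCs 5 or 7, 2 higher without MCD_MoKCs 4 to 7, and 2 lower without MCD_MoKCs 1 to 3. Cdh5, VE-cadherin, an adhesion molecule of endothelium that Kupffer cells also express (chromosome 8, 104101625 to 104144511), was at 183, 375 and 799.5 against 1019, 1584 and 2085 (log2 change -2.07, SE 0.28, limma adjusted p = 3.38e-05), Pecam1 had a fold change of -1.38 (SE 0.24) and Vcam1 of -0.95 (SE 0.23). The Vcam1 call ended without MCD_MoKCs 1 to 3 (limma adjusted p = 0.117). Itgax, the integrin CD11c (chromosome 7, 128129547 to 128150657), was at 1729, 2548 and 3936 against 226, 297 and 618 (log2 change 2.90, SE 0.26, limma adjusted p = 2.76e-07), and Alcam, which binds CD6, at 169, 679.9 and 861 against 0.849, 6.23 and 217, with overlapping groups and a call that ended in edgeR's quasi-likelihood test (adjusted p = 0.0521). Of 25 Siglec, CD300, TREM, LILR and SIRP receptors, 7 were lower and 3 higher (median -0.04), with 4 lower without MCD_MoKCs 4 to 7. Siglece, an inhibitory receptor for sialic acids (chromosome 7, 43651070 to 43660161), was at 820.1, 999.9 and 1423 against 2263, 3109 and 3488 (log2 change -1.49, SE 0.17, limma adjusted p = 4.75e-06). Lilra5 and Cd300e, at -1.44 (SE 0.18) and -1.41 (SE 0.19), were lower, while the lipid-sensing Trem2 (log2 change 1.52, SE 0.15) and the inflammation amplifier Trem1 (log2 change 2.61, SE 0.67) were higher. The Trem1 call ended in edgeR's quasi-likelihood test (adjusted p = 0.114) and without MCD_MoKCs 1 to 3 (limma adjusted p = 0.113) or 4 to 7 (limma adjusted p = 0.0864).

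Prostaglandin genes differed in both directions. Of 19 eicosanoid genes tested, 4 were lower and 2 higher (median -0.27). Ptgs1, the constitutive cyclooxygenase (chromosome 2, 36230426 to 36252272), was at 4669, 6619 and 7454 against 11119.6, 13397 and 14393 (log2 change -1.03, SE 0.12, limma adjusted p = 7.39e-06), and Ptgs2, the inducible cyclooxygenase (chromosome 1, 150100031 to 150108227), was at 452, 906 and 1322 against 13.3, 49.1 and 154 (log2 change 4.14, SE 0.50, limma adjusted p = 1.15e-05). In both genes the groups stood apart, in opposite directions. Hpgd, which inactivates prostaglandins (chromosome 8, 56294585 to 56321043), was at 2013, 2762 and 3417 against 5531, 6869 and 7476 (log2 change -1.30, SE 0.14, limma adjusted p = 3.17e-06). Ptges, a prostaglandin E synthase, was the other higher call, which held in 4 of 13 fits without 1 library. Prostacyclin synthase, Ptgis, was at 4.75, 60.4 and 249.7 against 359.6, 439 and 523 (log2 change -3.15, SE 0.75, limma adjusted p = 0.0101), while the prostacyclin receptor, Ptgir, had no read in any MCD_EmKCs library and 38.2, 98.7 and 416 normalised reads in MCD_MoKCs. Against a floor of 3 reads over the 6 MCD_EmKCs libraries together, Ptgir was at least 335-fold higher (limma adjusted p = 3.88e-06).

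MCD_MoKCs expressed several chemoattractant receptors that were low in MCD_EmKCs. Of 17 tested, 9 were higher and 1 lower (median 1.24). Cx3cr1, the fractalkine receptor of monocytes (chromosome 9, 119901616 to 120069879), was at 2003, 2905 and 3853 against 1.29, 21.8 and 45.8, a ratio of means of 124 (limma adjusted p = 4.55e-08). Ccr1, a receptor for CCL3 and CCL5 (chromosome 9, 123962124 to 123968692), was at 886, 1065 and 1208 against 0, 17.2 and 99.6, a ratio of 30.4 (limma adjusted p = 0.000108) and of 47.6 without MCD_EmKCs 1. Ccr2, which draws monocytes out of the marrow (chromosome 9, 124101950 to 124113557), was at 479, 682 and 1107 against 0, 55.9 and 95.7, a ratio of 15 (limma adjusted p = 0.000952). Each of the 3 stood apart between groups. Gpr183, the oxysterol receptor EBI2, had a ratio of 10.3 and the lymph node homing receptor Ccr7 of 10.9 (17.5 without MCD_EmKCs 3), the latter with overlapping groups and a call that ended without MCD_MoKCs 1 to 3 (limma adjusted p = 0.0743). Ccrl2, a decoy receptor that holds chemerin, was abundant in both groups, at 17714, 20594 and 23072 against 7237, 8641 and 10228 (log2 change 1.24, SE 0.10, limma adjusted p = 1.49e-07). Fpr1, the receptor for bacterial formyl peptides (chromosome 17, 17876471 to 17883940), was the member that was lower, at 1184, 1539 and 2302 against 2505, 3152 and 4644 (log2 change -1.05, SE 0.18, limma adjusted p = 0.000619).

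Of the chemokine genes, 9 of 23 tested were higher and 3 lower (median 0.43). Ccl9, an attractant of CCR1 cells (chromosome 11, 83572919 to 83578636), was at 4142, 5121 and 9100 against 1128, 1438 and 1734 (log2 change 2.05, SE 0.19, limma adjusted p = 4.41e-07). Ccl3 and Ccl4, inflammatory attractants of monocytes and T cells, were higher by 1.57 (SE 0.18) and 1.43 (SE 0.14). The neutrophil attractants Cxcl1 and Cxcl2 were higher by 1.56 (SE 0.26) and 0.94 (SE 0.12). Cxcl13, which draws B cells (chromosome 5, 95956951 to 95961068), was at 60.4, 319 and 423 against 2448, 2845 and 4049 (log2 change -3.66, SE 0.35, limma adjusted p = 7.56e-07), and every MCD_MoKCs library lay below every MCD_EmKCs library. The eosinophil attractant Ccl24 had a fold change of -1.48 (SE 0.30), a call that ended without MCD_MoKCs 4 to 7 (limma adjusted p = 0.0571), and Cx3cl1, the ligand of Cx3cr1, one of -1.66 (SE 0.46). Cx3cl1 kept its call in 10 of 13 fits without 1 library, which excepts those without MCD_EmKCs 1 and 6 and MCD_MoKCs 3. The Cx3cl1 call also ended in edgeR (adjusted p = 0.0590) and without MCD_MoKCs 1 to 3 (limma adjusted p = 0.0512). The monocyte attractants Ccl2 and Ccl7 did not pass, at -0.39 and -0.58.

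Cytokine genes were called in both directions. Of 18 tested, 4 were higher and 2 lower (median 0.21). Tnf (chromosome 17, 35199381 to 35202007), an inflammatory cytokine, was at 6680.4, 8509 and 10858 against 3113, 3787 and 4884 (log2 change 1.20, SE 0.14, limma adjusted p = 5.18e-06). Il1b (chromosome 2, 129364570 to 129371139), which encodes interleukin 1 beta, was abundant in both groups, at 30028, 36004 and 41540.2 against 20193, 25426 and 29381 (log2 change 0.53, SE 0.11, limma adjusted p = 0.00224), and overlaps its antisense Il1bos. Osm, a cytokine that acts on stroma and hepatocytes, had a ratio of means of 86.8, and of 137 without MCD_EmKCs 4. Il1r1, the signalling receptor for interleukin 1, had no read in MCD_EmKCs and 24.9, 59.8 and 154 normalised reads in MCD_MoKCs, at least 142-fold higher against a floor of 3 reads over the group. Il1r1 and Ptgir belong to no list and are named after their values were seen. Il10, at 0.60, did not pass, and Il6 passed in the lower direction at -0.60 (SE 0.19) with a call that held in 3 of 13 fits without 1 library. The other lower call, Il18bp, which binds interleukin 18, held in 7 of 13 such fits, and neither was called without MCD_EmKCs 1, 3 or 6 or MCD_MoKCs 5 or 7.

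Growth factor, matrix protease and coagulation genes held mostly higher calls. Of 22 fibrogenic, angiogenic and epithelial growth factor genes, 11 were higher (7 without MCD_MoKCs 1 to 3) and 1 lower (median 1.11). Vegfa, the vascular endothelial growth factor (chromosome 17, 46016993 to 46032369), was at 849.8, 1611 and 3370 against 54.3, 179 and 488 (log2 change 3.41, SE 0.49, limma adjusted p = 0.000152), and Gdf3, a TGF-beta family member (chromosome 6, 122605403 to 122610087), at 545, 659.9 and 1022 against 17.8, 34.6 and 93.2 (log2 change 4.28, SE 0.38, limma adjusted p = 2.74e-07). Thrombospondin 1, Thbs1, had a ratio of means of 15.8 (25.1 without MCD_EmKCs 5), with overlapping groups. Hbegf, a ligand of the EGF receptor, was the one that was lower, at 421, 799 and 1214 against 1849, 2134 and 2739.7 (log2 change -1.56, SE 0.22, limma adjusted p = 8.18e-05). Tgfb1, Pdgfb and Igf1, at 0.38, 0.91 and 0.07, did not pass. Of 18 matrix protease genes, limma called 8 higher and none lower (median 1.12), while 14 had an unadjusted p under 0.05, DESeq2 called 3 lower, edgeR 0, and limma 2 lower without MCD_MoKCs 1 or without MCD_MoKCs 1 to 3. Adam8, a sheddase of activated leukocytes (chromosome 7, 139978932 to 139992562), was at 1309.8, 2619.6 and 4842 against 25.9, 179.6 and 311 (log2 change 4.53, SE 0.52, limma adjusted p = 2.23e-05), and the collagenases Mmp13 and Mmp14 were higher by 1.98 (SE 0.34) and 1.22 (SE 0.15). Adam8 overlaps Gm16201 on the opposite strand, with a fold change of 3.37, so the share of reads that belongs to each cannot be told apart.

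Of 15 coagulation and fibrinolysis genes, 7 were higher and 1 lower (median 1.74). The genes of coagulation factors VII and X lie next to each other on chromosome 8. F7 (chromosome 8, 13026034 to 13035809) was at 271, 463 and 1049 against 0, 2.76 and 99.6, a ratio of means of 26.4 (limma adjusted p = 4.35e-05), which was 110 without MCD_EmKCs 1, and F10 (chromosome 8, 13037308 to 13056676) had a ratio of 107. Mcf2l, the gene before them, was at 44.9, 81.9 and 453 against 0, 0 and 17.1, so that 3 neighbouring genes were called in 1 direction. On the fibrinolytic side, the urokinase receptor Plaur was at 4973, 6722 and 7021 against 1437, 1788 and 2593 (log2 change 1.78, SE 0.15, limma adjusted p = 1.49e-07). Annexin A2 and S100a10, which together hold plasminogen at the cell surface, were higher by 1.88 (SE 0.19) and 4.01 (SE 0.42). Pros1, protein S, an anticoagulant that also bridges apoptotic cells to TAM receptors, was lower at 755, 864 and 920.1 against 1087, 1467 and 2223 (log2 change -0.80, SE 0.18, limma adjusted p = 0.00544). The TAM receptors Mertk and Axl did not pass, at -0.28 and -0.25. The platelet list took more of the reads in every MCD_MoKCs library, most of them on the 1 gene Pf4, and the part of platelet RNA was not tested.

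**Figure D5:**
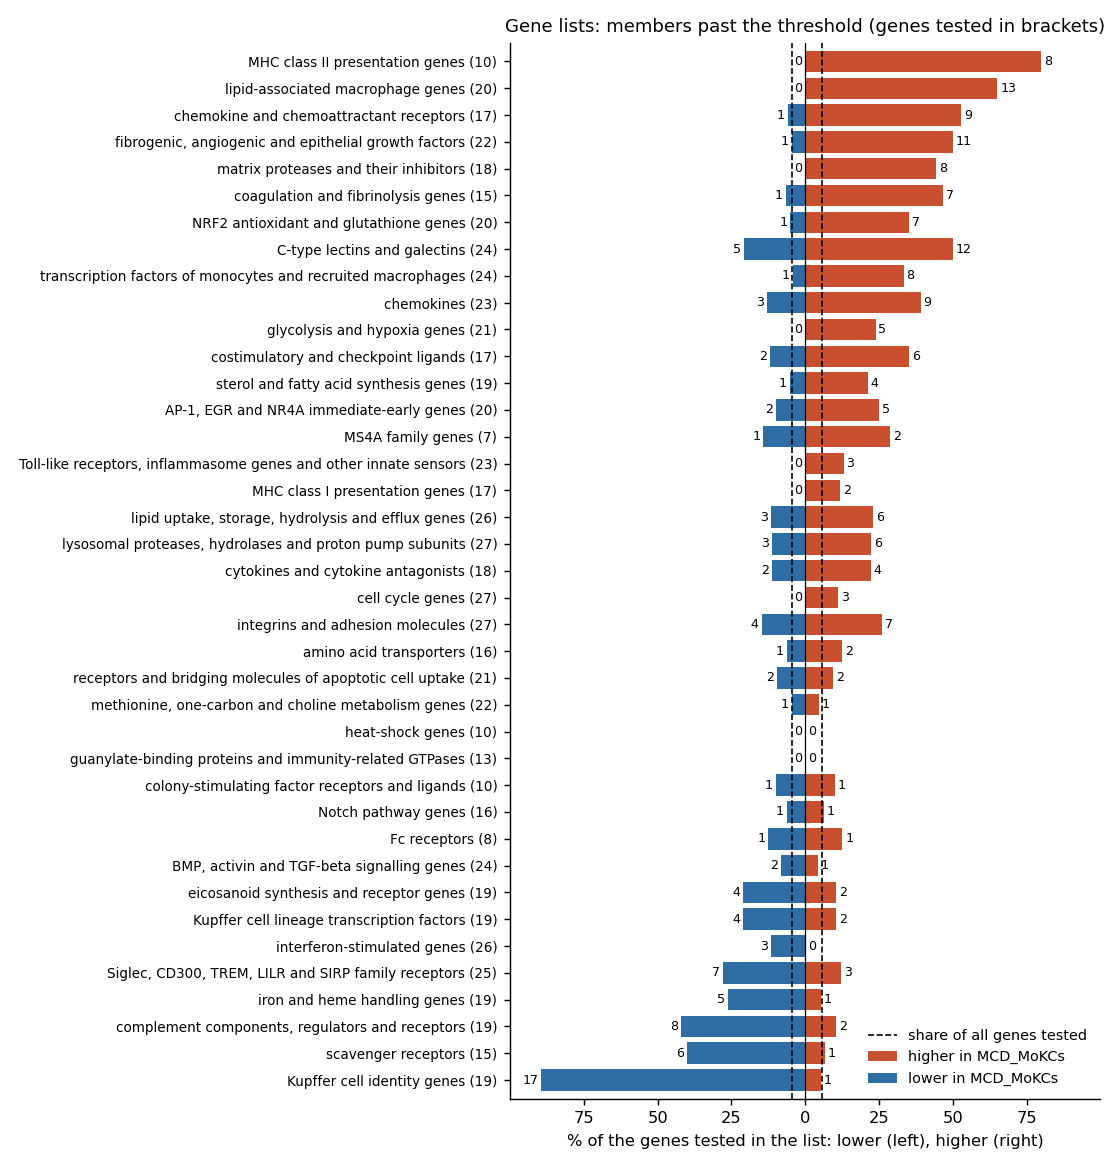
For each of 39 gene lists, the % of its genes tested (number in brackets) that limma called lower (blue, left) and higher (red, right) in MCD_MoKCs, with the counts at the bar ends. Dashed lines mark the share over all genes tested, 4.39% lower and 5.53% higher; lists at the top are mostly higher, those at the bottom mostly lower, and heat-shock genes and guanylate-binding proteins have no call.

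Calls among antigen presentation genes lay mostly in class II. Of 10 class II genes, 8 were higher and none lower (median 2.12), and Ciita, the class II transactivator, was higher by 2.09 (SE 0.32). H2-Ob, H2-Ab1, H2-Aa, H2-Eb1 and H2-Eb2 formed a run of 5 neighbouring genes called higher on chromosome 17, from 34238903 to 34341412, in which the H2-Ob call ended without MCD_MoKCs 1 to 3 (limma adjusted p = 0.104) or 4 to 7 (limma adjusted p = 0.0784). Of 17 class I genes, limma called 2 higher and none lower (median 0.22), 1 of them, the immunoproteasome gene Psmb8, in 4 of 13 fits without 1 library, and 1 lower without MCD_MoKCs 6. Without MCD_MoKCs 4 to 7, 4 were higher, and without MCD_MoKCs 1 to 3 none was, while H2-K1, H2-D1 and B2m, at 0.25, -0.07 and 0.33, did not pass. Of 17 costimulatory and checkpoint ligands, 6 were higher and 2 lower (median 0.26). Tnfsf9, the ligand of 4-1BB (chromosome 17, 57105325 to 57107757), was at 1619, 1987 and 2169 against 182, 358 and 567.9 (log2 change 2.49, SE 0.22, limma adjusted p = 3.18e-07), and Cd276, B7-H3, at 101, 424 and 753 against 0, 9.32 and 63.4. Tnfsf9 overlaps Gm11110 on the opposite strand, with a fold change of 2.55, so the share of reads that belongs to each cannot be told apart. Vsir, VISTA, was higher by 1.30 (SE 0.19), but it lies within Cdh23, which had nearly the same values (3321, 5009 and 5804 against 3271, 4775 and 5690.1 in MCD_MoKCs), so their reads cannot be told apart. Cd86 passed in the lower direction (log2 change -0.80, SE 0.22) with overlapping groups, and its call ended without MCD_MoKCs 1 to 3 (limma adjusted p = 0.247) or without any of MCD_MoKCs 1, 2, 3 and 5.

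Transcription factor genes differed in both directions. Of 19 Kupffer cell lineage factors, 4 were lower and 2 higher (median -0.21), of which the Notch factor Rbpj held in 4 of 13 fits without 1 library. Rxra, the partner of LXR and other nuclear receptors (chromosome 2, 27676440 to 27762957), was at 3915, 4598 and 5985 against 6194, 8624 and 11996 (log2 change -0.92, SE 0.14, limma adjusted p = 0.000226), and Spic, a PU.1 relative of iron-recycling macrophages (chromosome 10, 88674772 to 88685015), at 1853, 2755 and 3522 against 4037, 5219 and 5906 (log2 change -0.96, SE 0.16, limma adjusted p = 0.000403). Id3 and Zeb2, 2 factors that Kupffer cells need, did not pass, with fold changes of 0.14 (SE 0.13) and 0.21 (SE 0.29). Of 24 factors of monocytes and recruited macrophages, 8 were higher and 1 lower (median 0.41), with 2 lower without MCD_EmKCs 3. Nfil3, a basic leucine zipper repressor (chromosome 13, 52967209 to 52981073), was at 1820.4, 2343 and 2929 against 252, 449 and 593 (log2 change 2.48, SE 0.21, limma adjusted p = 1.47e-07). Klf2, a quiescence factor (chromosome 8, 72319033 to 72321656), was at 12369.5, 15516 and 18080.2 against 20737, 26203 and 61823 (log2 change -1.02, SE 0.22, limma adjusted p = 0.00571), with MCD_EmKCs 1 and 2 highest, and its call ended both without MCD_MoKCs 1 to 3 (limma adjusted p = 0.0775) and without MCD_MoKCs 4 to 7 (limma adjusted p = 0.0817). Runx3, at 63.3, 1358 and 3424 against 0, 2.34 and 109, was split within MCD_MoKCs: libraries 1 to 3 held 63.3 to 193 normalised reads and libraries 4 to 7 held 1358 to 3424. Without libraries 4 to 7 its call ended (limma adjusted p = 0.0966).

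Immediate-early genes also differed in both directions. Of 20 AP-1, EGR and NR4A genes, 5 were higher and 2 lower (median 0.26), with 3 higher without MCD_MoKCs 1 to 3, and 5 lower without MCD_MoKCs 6 or without MCD_MoKCs 4 to 7. Nr4a2 (chromosome 2, 57106830 to 57124003) was at 559, 818 and 1093 against 64.5, 92.9 and 166 (log2 change 3.02, SE 0.28, limma adjusted p = 4.77e-07), and Jun (chromosome 4, 95049034 to 95052222), which overlaps its antisense Junos, at 43086, 57455 and 70415 against 74698, 94556 and 106372 (log2 change -0.71, SE 0.11, limma adjusted p = 0.000258). Fos and Egr1, at 0.03 and -0.24, did not pass. Of 10 heat-shock genes, none passed in limma (2 had an unadjusted p under 0.05), nor in edgeR or DESeq2 (median 0.13).

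Metabolic lists held a few large differences among many small ones. Of 16 amino acid transporters, 2 were higher and 1 lower (median 0.09), with 2 lower without MCD_EmKCs 1. Slc7a11, the cystine importer that supplies glutathione synthesis (chromosome 3, 49892526 to 50443614), was at 774, 1069 and 1556 against 0, 16.4 and 85.7, a ratio of means of 44.4 (limma adjusted p = 9.41e-06) and of 88.1 without MCD_EmKCs 6. Slc1a3, a glutamate and aspartate transporter (chromosome 15, 8634124 to 8710764), was at 0, 20.9 and 80.5 against 295, 403 and 634, and its mean in MCD_MoKCs was 5.71% of that in MCD_EmKCs (limma adjusted p = 0.000305) and 3.70% without MCD_MoKCs 7. Slc7a11 thus did not exceed 85.7 in MCD_EmKCs, nor Slc1a3 80.5 in MCD_MoKCs. Of 20 antioxidant genes, 7 were higher and 1 lower (median 0.45), with Srxn1, sulfiredoxin, at 2425, 3263 and 4743 against 879.7, 1057 and 1319 (log2 change 1.69, SE 0.18, limma adjusted p = 2.38e-06) and the glutathione transferase Gstm1 at 1.77 (SE 0.24). Of 21 glycolysis and hypoxia genes, 5 were higher and none lower (median 0.47; 1 lower without MCD_EmKCs 3 or MCD_MoKCs 6 or 7), and pyruvate kinase, Pkm, was higher by 0.60 (SE 0.11). Of 22 methionine, one-carbon and choline genes, the pathways the diet starves, 1 was higher and 1 lower (median 0.13), shares of 4.55% each that lie near the background of 5.53 and 4.39%. The higher call ended without MCD_EmKCs 1, 4 or 6 or MCD_MoKCs 1, 2, 3, 5 or 7, and 2 were lower without MCD_MoKCs 7. Lysosomal genes, with 6 of 27 higher and 3 lower (median -0.10), included the proton pump subunit Atp6v0d2 (log2 change 2.00, SE 0.33), Ctss (log2 change 0.64, SE 0.11) and Ctsk, an elastin- and collagen-degrading cathepsin with a ratio of means of 15.9, which was 39.9 without MCD_EmKCs 4. The lower lysosomal calls Ctsa and Lgmn held in 3 and 6 of 13 fits without 1 library, and 1 lower call was left without MCD_EmKCs 1, 2 or 3 or MCD_MoKCs 7.

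Several signalling lists held few calls. Of 26 interferon-stimulated genes, 3 were lower, Irf7, Oasl1 and Usp18, and none higher (median -0.24), while DESeq2 called 6 lower. The Irf7 call ended without MCD_MoKCs 4 to 7 (limma adjusted p = 0.113), that of Oasl1 without MCD_MoKCs 1 to 3 (limma adjusted p = 0.0563) or 4 to 7 (limma adjusted p = 0.0689), and that of Usp18 without MCD_MoKCs 1 to 3 (limma adjusted p = 0.271). Usp18 kept its call in 5 of 13 fits without 1 library, and 1 gene was higher without MCD_MoKCs 5 and 2 without MCD_MoKCs 4 to 7. Of 13 guanylate-binding proteins and immunity-related GTPases, none passed in limma or edgeR (median -0.13), while 4 had an unadjusted p under 0.05 and 1 was called lower in DESeq2 and in limma without MCD_EmKCs 2 or MCD_MoKCs 1 or 3. Of 23 Toll-like receptor, inflammasome and other sensor genes 3 were higher, Cd14 (log2 change 0.51, SE 0.12), Tlr13 (log2 change 0.61, SE 0.17) and Tlr1 (log2 change 0.68, SE 0.20), with overlapping groups in each. The calls of all 3 ended without MCD_MoKCs 4 to 7 (limma adjusted p = 0.0561, 0.154 and 0.194), those of Tlr13 and Tlr1 also without MCD_MoKCs 1 to 3 (limma adjusted p = 0.0605 and 0.0769), and Tlr1 kept its call in 6 of 13 fits without 1 library. Of 24 BMP, activin and TGF-beta signalling genes, 1 was higher and 2 lower (median 0.00), of which Bmpr1a, a BMP receptor, held in 5 of 13 fits without 1 library, and 2 to 3 were higher without MCD_EmKCs 1, 3 or 5. The shares of this list, 4.17% higher and 8.33% lower, stand beside 5.53 and 4.39% over all genes tested. Acvrl1, the receptor ALK1 through which BMP9 and BMP10 of the niche act (chromosome 15, 101128522 to 101145336), was at 782, 896 and 1348 against 1447, 1670.3 and 2000.4 (log2 change -0.82, SE 0.17, limma adjusted p = 0.0028), and its co-receptor endoglin, Eng (chromosome 2, 32646595 to 32682669), was at 991, 1511 and 5248 against 413, 550.1 and 692 (log2 change 1.82, SE 0.30, limma adjusted p = 0.000443). In these 2 partners the groups stood apart in opposite directions. Of 16 Notch genes, Hes1, a Notch target (chromosome 16, 30064384 to 30067796), was lower at 934, 1463 and 1876 against 2399, 2829 and 3545 (log2 change -0.97, SE 0.17, limma adjusted p = 0.000555), and Rbpj passed in the higher direction with a call that held in 4 of 13 fits without 1 library. The shares of the Notch list, 6.25% higher and 6.25% lower, lie near those over all genes tested. Csf1r, the receptor on which macrophages depend (chromosome 18, 61100598 to 61132149), was lower, at 47804, 52122 and 67042 against 68518, 78264 and 90881 (log2 change -0.52, SE 0.09, limma adjusted p = 0.000836).

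Some of the endothelial and lipid-associated genes varied together within MCD_MoKCs, a pattern chosen after their values were seen. Gpnmb, a glycoprotein of lipid-laden macrophages, Spp1, osteopontin, Eng, the Fc receptor Fcgr2b and Kdr, a receptor of endothelium, each had their 3 highest MCD_MoKCs libraries in 5, 7 and 2. Gpnmb was at 46478 in library 5, 41559 in library 7 and 28151 in library 2, and at 12631 to 18399.9 in the other 4. Spp1 was at 6917, 3876 and 3200.0 in these libraries, and at 919 to 1554 in the others. Eng was at 5248, 2311 and 2602, and at 991 to 1511 in the others. The sinusoidal endothelial list took 0.129, 0.118 and 0.0961% of reads in these libraries, against 0.0344 to 0.0504% in the other 4 and 0.0427 to 0.0666% in MCD_EmKCs. Of its 16 genes tested 5 were higher in MCD_MoKCs, Bmp2, Egfl7, Eng, Oit3 and Fcgr2b, and 2 lower, Pecam1 and Stab2, while DESeq2 called 8 higher. Without MCD_MoKCs 1 to 3, 2 of the 5 were higher, and the calls of Bmp2, Egfl7 and Oit3 ended (limma adjusted p = 0.125, 0.145 and 0.0722). The Oit3 call also ended without MCD_MoKCs 4 to 7 (limma adjusted p = 0.0538). The part of endothelial RNA in these values was not tested.

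Very few genes were confined to the reads of 1 group. With at most 3 reads in every MCD_EmKCs library and at least 30 in every MCD_MoKCs library, 2 genes qualified, AI467606 and the predicted gene Gm13571, and in the other direction none did. AI467606 (chromosome 7, 127091359 to 127093986) had no read in MCD_EmKCs and 84.5, 154 and 391 normalised reads in MCD_MoKCs, at least 360-fold higher against a floor of 3 reads over the group. Gm13571 (chromosome 2, 60338188 to 60371234) was at 54.9, 127 and 369 in MCD_MoKCs and lies on the strand opposite to Ly75, an endocytic receptor of dendritic cells, which was itself higher by 5.93 (SE 0.90), so their reads cannot be told apart. The spread within groups was alike: over genes with a mean of at least 500, the median SD of log2 values was 0.372 in MCD_MoKCs (5640 genes) and 0.354 in MCD_EmKCs (5535 genes). The most variable of them were Khdrbs3, Exoc3l2, Tmem132e, Timp3 and Zfp777 in MCD_MoKCs and Tmem132e, Rasd2, Tyw3, Timp3 and Syn3 in MCD_EmKCs. Exoc3l2, an exocyst-related gene, ran from 38.2 to 19664 in MCD_MoKCs, with libraries 1 to 3 lowest, and from 239 to 4656 in MCD_EmKCs, with libraries 1 to 3 and 6 above 4 and 5. Timp3 lies within Syn3 on the opposite strand, and their values were nearly equal except in MCD_EmKCs 2 and 4, where both were lowest.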

How the data were processed

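Per the labels' protocols, liver was digested with collagenase D, Kupffer cells were sorted on a BD FACSAria, a QIAGEN micro kit gave RNA, and SMART-seq libraries were read on Illumina sequencers. STAR, DESeq2 and mm10 are listed without versions in the submitters' processing notes. The authors deposited a normalized signal per gene for 33919 Ensembl genes, reads divided by 1 size factor per library, and whole reads were recovered from it for 100% of values within 0.01 read. Symbols and positions of 29062 genes came from GENCODE M21, and the other 4857 kept their identifiers. Whether the kit kept strand is not given in the sources used here.

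The 7 MCD_MoKCs and 6 MCD_EmKCs libraries were compared with limma 3.58.1 (R 4.3.3) of log2(value + 1) levels, robust and trended in its variances, over 13994 genes at 10 or more in at least 6 libraries, with Benjamini-Hochberg adjustment over all of them. edgeR 4.0.16 (quasi-likelihood) and DESeq2 1.42.0 on the recovered reads were alternatives, as were other filters, pseudocounts, scalings and subsets of libraries. Shares of reads and other library measures were compared with exact two-sided permutation tests. The test script was tested on simulated data. The labels do not say that libraries came from separate mice, so p-values measure the spread between these libraries, which may be technical, and reads carry no molecular identifiers.

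Named genes were called, did not overlap between groups and kept their direction in every fit without 1 library: the 10 with the smallest p and the 5 with the largest read difference in each direction, and up to 3 per list and direction. The sort genes, genes near absent in 1 group and the 5 most variable genes of each group were named apart from that rule. Other list members are examples of a count. The comparison, the lists and the rule were chosen with earlier results of these data known. A few list members are counted in their lists and not reported here by name.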

Additional observations from a re-analysis of the deposited data

Results flagged for a closer look

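In 218 groups of values, 20 single libraries lay apart from the rest of their group by Dixon's criterion, which chance meets in about 1 group in 20. In MCD_MoKCs 7, AI467606 was at 391 normalised reads (84.5 to 201 in the other 6 libraries), Gm13571 at 369 (54.9 to 169) and Marco at 3115 (1479 to 2106). In MCD_MoKCs 5, Eng was at 5248 (991 to 2602 in the others), Exoc3l2 at 19664 (38.2 to 6188), Gdf15 at 19254 (14175 to 16289.8) and the cholangiocyte list at 0.0466% of reads (0.00539 to 0.0221%). In MCD_MoKCs 2, the sort gene Timd4 was at 743 (258 to 427 in the others) and the neutrophil list at 0.0328% of reads (0.00967 to 0.0184%). Ccr2 was at 1107 in MCD_MoKCs 6, Cdh5 at 799.5 in MCD_MoKCs 1 and Kcna2 at 127 in MCD_MoKCs 4. In MCD_EmKCs 1, C4b was at 19110.2 (10452 to 12486 in the others), Scd1 at 8383 (1269 to 2612) and F7 at 99.6 (0 to 19.3). In MCD_EmKCs 3, Cd63 was at 1788 and Alcam at 217. Slc7a11 was at 85.7 in MCD_EmKCs 6, Mcf2l at 17.1 in MCD_EmKCs 4 and Gm13571 at 1.07 in MCD_EmKCs 2, these last 2 with 0 in the other 5 libraries.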

How the results depend on the processing

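Against 774 genes higher and 615 lower, limma called 333 and 276 within the libraries numbered from 37 in the deposited column names, 385 and 281 within those numbered up to 33, and 473 and 452 without MCD_MoKCs 1 to 3; these fits hold fewer libraries. Leaving out 1 library at a time gave 628 to 806 higher and 511 to 622 lower. The other alternatives stayed within 1.5 times: DESeq2 called 983 and 774, edgeR 641 and 564, and the fit without MCD_MoKCs 4 to 7 called 776 and 693. Of up to 259 calls of named or list genes, none reversed under these alternatives, while edgeR did not call 25, DESeq2 9, limma without trend and robust estimates 46, the replicate block 35, the fits without MCD_MoKCs 1 to 3 and 4 to 7 66 and 58, and those within library numbers from 37 and up to 33 112 and 102. With the replicate number as a block, 704 and 555 genes were called, MCD_MoKCs 7 being left out. Same-numbered libraries did not deviate together (correlations -0.073 to 0.039, and 0 of 6 MCD_EmKCs libraries correlated best with their own number). Only this numbering was checked, so a pairing in another order was not tested. Whether libraries of the 2 groups share a mouse is not given in the sources used here. Genes near 10 normalised reads lie at the filter, and a library at 0 makes a fitted fold change depend on the pseudocount.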

Other observations

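Cebpb, a C/EBP factor gene of inflammatory macrophages, was not called and varied widely in both groups, from 99673 to 1055040 normalised reads in MCD_EmKCs and from 100140 to 485472 in MCD_MoKCs.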
